A study of Mus musculus with 12 samples.

Results

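The genes described here encode 38 components of T cell receptor signaling, from the CD3 chains to the NFAT factors and the enzymes that restrain the receptor. They were chosen by name from the pathway, with earlier results of these data known. All 38 were found among the 55401 genes of the deposited tables and had enough reads to be tested. Levels were compared between a pair of CD4 T cell populations sorted from spleens of C57BL/6 mice on day 21 of infection with the parasite Leishmania donovani, which all groups carried. TLCP denotes cells sorted as PD-1lo/int, LAG-3+ and CXCR5+, and Tfh denotes T follicular helper cells sorted as CXCR5+ PD-1hi, described by the submitters as mostly of the germinal center. Each population had 6 libraries, numbered 1 to 6, and the series gives 6 mice. The age of the mice and whether a library is 1 mouse are not given in the sources used here, so p-values measure the spread between these libraries.

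The T cell receptor has no enzyme activity of its own. When it binds a peptide on an MHC molecule, Lck phosphorylates the tails of the CD3 and zeta chains, Zap70 docks there, and the scaffold of Lat and SLP-76 forms and activates phospholipase C gamma 1. The resulting calcium signal drives NFAT, diacylglycerol drives protein kinase C theta and Ras, and phosphatases, ubiquitin ligases and diacylglycerol kinases limit the signal at each step.

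The files hold 6939770 to 12688306 assigned reads for each library, so a count of 0 allows up to 0.236 to 0.432 CPM (3 counts, counting error only). CPM here means read counts relative to library size, scaled by TMM, a method that allows for differences in RNA composition. Defining T cell markers were abundant in both populations, at a summed level of 2546 to 3209 CPM in TLCP and 3644 to 4004 CPM in Tfh for Cd3e, Cd3d, Trac, Cd4, Cd2 and Cd28. CD8 transcripts (Cd8a and Cd8b1) summed to 5.60 to 17.6 CPM and 3.35 to 9.64 CPM. B cell transcripts were present in both and higher in TLCP. Of 16 B cell markers 14 were higher in TLCP and 0 lower, none was at 0, and the list summed to 5211 to 24182 CPM in TLCP and 1220 to 2277 CPM in Tfh. Plasma cell markers summed to 715 to 3324 CPM and 80.6 to 249 CPM, and basophil and mast cell markers to 26.1 to 96.2 CPM and 0.239 to 7.17 CPM. In such bulk samples fewer cells of a type and less RNA per cell cannot be told apart.

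More components of the receptor machinery were lower than higher in TLCP, most of them by modest amounts. Of the 38 genes 19 were lower in TLCP, 9 were higher and 10 did not pass at an adjusted p of 0.05. That is 73.7% called, beside a background of 33.2% of all 12015 genes tested and 40.4% of the genes at least as abundant as the least abundant member. In the lower direction the share was 50.0% of the members, against a background of 16.4%, and in the higher direction 23.7% against 16.8%. Because the members were chosen with earlier results known, these shares are a description and no test of the pathway. Only 8 of the 38, or 21.1%, changed by at least 1.5-fold, against 16.1% of all genes. All 9 higher and all 19 lower calls were also those of the authors' deposited table, with log2 fold changes within 0.013 of those given here.

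Of 25 transmitting components 15 were lower and 5 higher in TLCP, and their median log2 fold change was -0.31. Of 12 attenuating components 3 were lower (25.0%) and 4 higher (33.3%), beside the same backgrounds, and their median was 0.13. Ptprc, which both activates and restrains, was lower. The median of all genes tested was -0.004. Scaled by library totals alone, that median moved to 0.17, the transmitters' median to -0.13 and the attenuators' to 0.30. All 19 lower genes lay below the median of all genes and all 9 higher ones above it in each of the 30 alternative fits. These genes were picked by their call in the main fit and the alternatives reuse its libraries, so this is a description and no separate test. The fit on recovered reads repeats the main counts. The difference between transmitters and attenuators was not tested. A further 16 attenuators of the pathway, none of them a member, had 4 higher (25.0%), 6 lower (37.5%) and a median of -0.10.

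**Figure D1:**
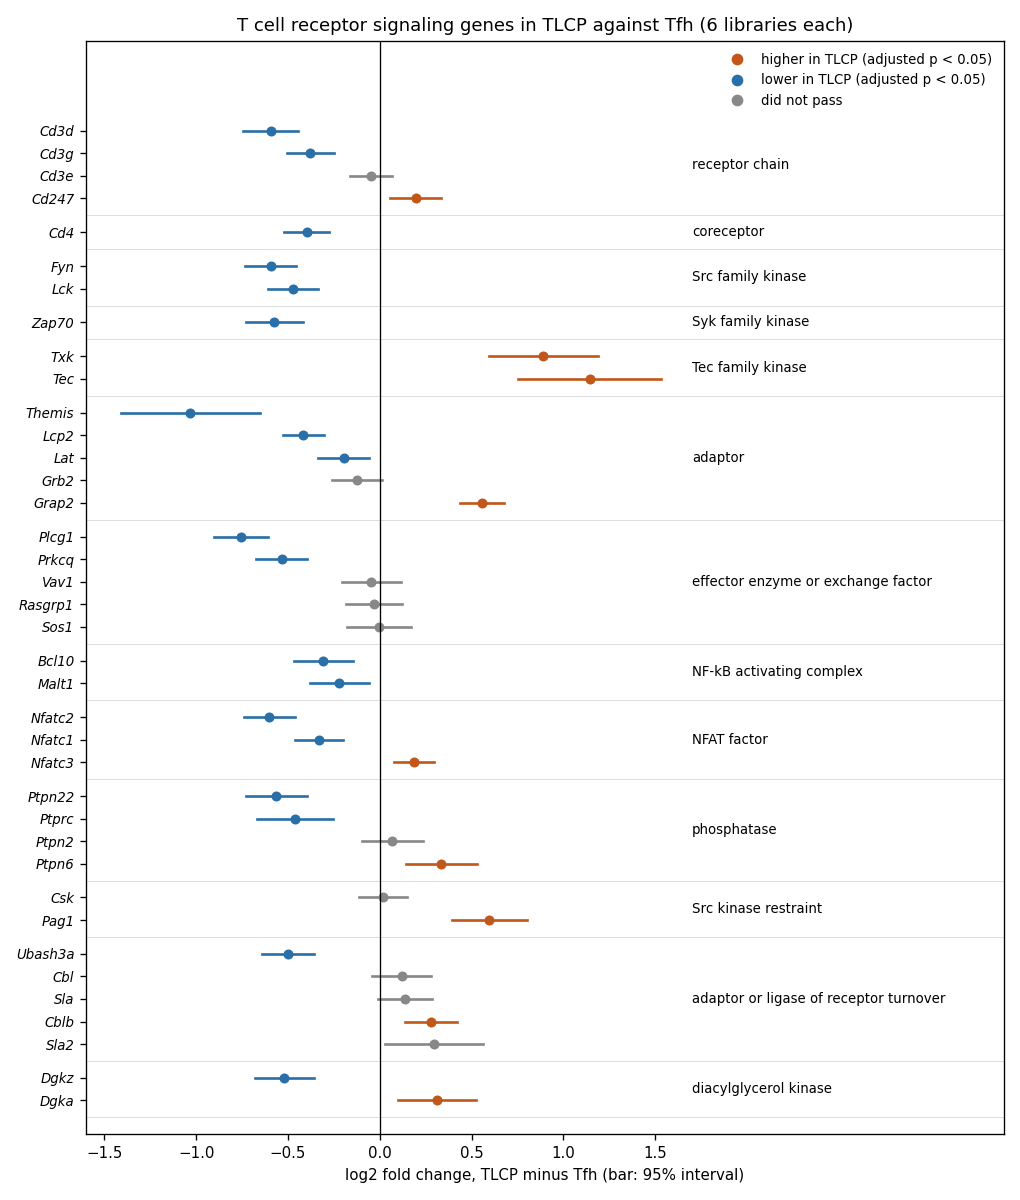
Log2 fold change of each of the 38 genes (TLCP minus Tfh, TMM scaling, 6 libraries each) by class, with its 95% interval. Points left of 0 are lower in TLCP, colours give the call at an adjusted p of 0.05, and the widest departures are Themis at -1.03 and Tec at 1.15.

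The receptor chains themselves did not move together. Cd3d, Cd3g and Cd3e, the CD3 delta, gamma and epsilon chains, are neighbours on chromosome 9 of GRCm38. Cd3g (44969572 to 44980431, minus strand) and Cd3d (44981786 to 44987339, plus strand) lie head to head with starts 1355 bases apart, and Cd3e (44998740 to 45009627, minus strand) lies 11400 bases beyond Cd3d, with 0 annotated genes between them. Their promoters are shown because neighbours with opposed starts were both lower while the third gene did not pass. Each line is the 250 bases before the RefSeq start in GRCm38.p6, 5′ to 3′ on the strand of the gene, with E-boxes (CANNTG) and the ETS core (GGAAGT or its reverse complement) in capitals. The windows are chr9:44980432-44980681 on the minus strand for Cd3g, chr9:44981536-44981785 on the plus strand for Cd3d and chr9:45009612-45009861 on the minus strand for Cd3e.
Cd3g: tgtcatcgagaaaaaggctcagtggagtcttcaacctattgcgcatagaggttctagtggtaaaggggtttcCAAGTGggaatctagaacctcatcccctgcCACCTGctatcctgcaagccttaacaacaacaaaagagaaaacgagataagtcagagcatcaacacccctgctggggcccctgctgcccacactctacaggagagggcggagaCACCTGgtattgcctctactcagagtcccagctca
Cd3d: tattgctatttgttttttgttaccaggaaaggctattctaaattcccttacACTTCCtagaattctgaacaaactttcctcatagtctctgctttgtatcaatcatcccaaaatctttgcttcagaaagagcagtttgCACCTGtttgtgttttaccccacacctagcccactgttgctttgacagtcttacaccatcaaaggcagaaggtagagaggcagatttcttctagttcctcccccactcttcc
Cd3e: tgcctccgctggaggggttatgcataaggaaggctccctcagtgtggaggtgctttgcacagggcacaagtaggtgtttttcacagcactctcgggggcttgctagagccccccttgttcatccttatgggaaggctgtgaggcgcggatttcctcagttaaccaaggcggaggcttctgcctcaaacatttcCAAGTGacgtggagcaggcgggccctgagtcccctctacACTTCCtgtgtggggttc
The Cd3g window held 3 E-boxes, the Cd3d window 1 E-box and 1 ETS core, and the Cd3e window 1 of each. Of 32817 RefSeq promoter windows of this length, searched on both strands, 66.2% held an E-box and 19.7% an ETS core, and these motifs do not overlap in the windows shown. A Runx core (TGTGGT), held by 14.0% of all windows, was in none of them. The windows had 4, 0 and 7 CpG dinucleotides for Cd3g, Cd3d and Cd3e, where the median window had 6.

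Cd3d ranged from 183 to 223 CPM in TLCP (median 187) and from 254 to 323 CPM in Tfh (median 301). Every TLCP library was below every Tfh library, and the gene was 1.51-fold lower in TLCP (log2 fold change -0.59, SE 0.072, adjusted p = 2.9e-06). Cd3g ranged from 384 to 485 CPM (median 407) against 514 to 570 CPM (median 546). Its groups were also separate, at -0.38 on the log2 scale (SE 0.061, adjusted p = 8.2e-05) that was -0.21 and did not pass (adjusted p = 0.064) with library totals alone. Cd3e was 471 to 552 CPM (median 502) in TLCP and 492 to 541 CPM (median 524) in Tfh. These ranges overlapped, and the log2 fold change of -0.05 (95% interval -0.16 to 0.07, adjusted p = 0.54) did not pass and was 0.12 with totals alone. Cd247, the zeta chain that carries most of the phosphorylation motifs, went the other way, at 223 to 272 CPM (median 255) in TLCP and 202 to 242 CPM (median 217) in Tfh. The ranges overlapped, and it rose by 0.20 on the log2 scale (SE 0.067, adjusted p = 0.029), higher in 5 of 6 numbered pairs. The call was lost without TLCP replicate 1, 3 or 4 or Tfh replicate 1, 2 or 3 (adjusted p up to 0.083). The antigen-binding chains followed Cd3d in direction. Trac, Trbc1 and Trbc2, the constant regions of the alpha and beta chains, had log2 fold changes of -0.59, -0.56 and -0.53, all lower in TLCP, although the near-identical copies Trbc1 and Trbc2 may share reads.

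Ratios between chains within a library do not depend on how libraries are scaled. They were chosen after the values were seen, are computed from the deposited TPM, a level per transcript length, and are given as a description without a test. The ratio of Cd3d to Cd3e was 0.812 to 0.912 in TLCP and 1.11 to 1.43 in Tfh. For Cd3g to Cd3e it was 0.929 to 1.10 against 1.26 to 1.39, and for Trac to Cd3e 4.89 to 6.24 against 7.45 to 8.81. Cd247 to Cd3e was 0.359 to 0.404 against 0.300 to 0.343. None of these 4 ratios overlapped between populations. Relative to Cd3e, TLCP libraries thus held less Cd3d, Cd3g and Trac transcript and more Cd247.

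**Figure D2:**
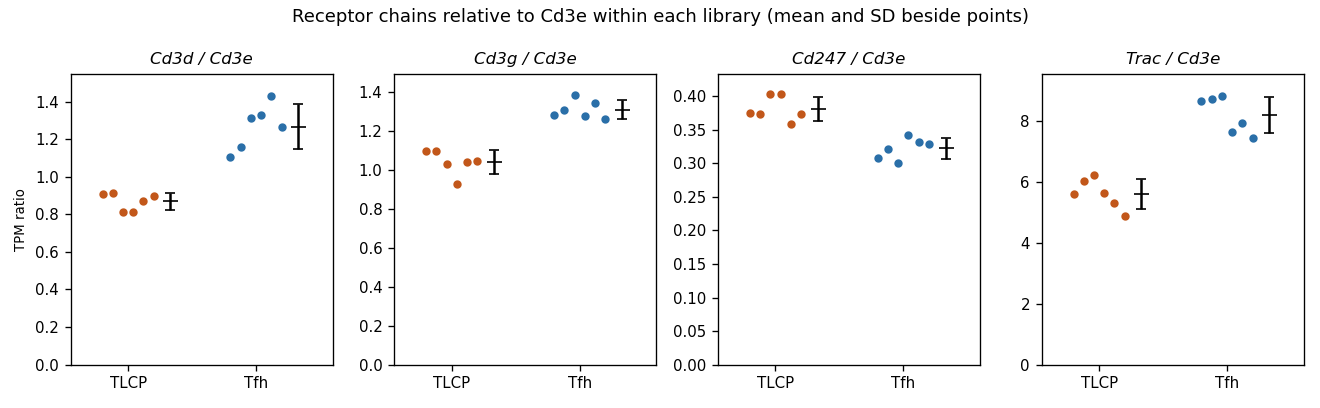
TPM of Cd3d, Cd3g, Cd247 and Trac divided by the TPM of Cd3e in the same library (6 points per population, replicates 1 to 6 from left to right, bars are mean and SD). The TLCP points lie below the Tfh points for Cd3d, Cd3g and Trac and above them for Cd247.

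The coreceptor and the kinases that start the signal were lower in TLCP with TMM scaling. On the TPM values none of Cd4, Lck, Fyn and Zap70 passed, and with totals alone Cd4 was near the threshold (adjusted p = 0.049). Cd4, which binds MHC class II and brings Lck to the receptor, was 666 to 779 CPM (median 736) in TLCP and 890 to 1016 CPM (median 945) in Tfh. No library of one population reached the range of the other, and the log2 fold change was -0.40 (SE 0.059, adjusted p = 3.3e-05). Lck, the Src family kinase that phosphorylates the receptor, was 399 to 478 CPM (median 458) against 552 to 668 CPM (median 634). It was lower in TLCP without overlap, at -0.47 on the log2 scale (SE 0.066, adjusted p = 1.4e-05). Fyn, the other Src family kinase among the members, was 445 to 586 CPM (median 534) in TLCP and within a narrow 763 to 816 CPM (median 794) in Tfh. Its groups stood apart, at a 1.51-fold decrease (log2 fold change -0.59, SE 0.067, adjusted p = 1.2e-06). Zap70, the kinase that docks on phosphorylated CD3 and zeta chains, was 112 to 138 CPM (median 122) against 158 to 207 CPM (median 181). It too was separate and lower in TLCP (log2 fold change -0.57, SE 0.074, adjusted p = 6.0e-06). Within a library, Cd4 to Cd3e was 1.43 to 1.52 in TLCP and 1.76 to 1.98 in Tfh, and Zap70 to Cd3e 0.307 to 0.373 and 0.425 to 0.557. The ratio of Lck to Cd3e was 1.24 ± 0.0531 (SD, n = 6) against 1.66 ± 0.118 (SD, n = 6). None of these 3 ratios overlapped, whereas that of Lck to Fyn did.

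The Tec family kinases among the members, which phosphorylate phospholipase C gamma 1, were both higher in TLCP. Txk, also called Rlk, was 40.4 to 55.0 CPM (median 46.7) in TLCP and 18.5 to 39.0 CPM (median 23.9) in Tfh. Tec was 20.0 to 42.4 CPM (median 26.5) against 9.55 to 15.9 CPM (median 11.9). For each gene every TLCP library exceeded every Tfh library. Txk was 1.85-fold higher (log2 fold change 0.89, SE 0.14, adjusted p = 8.9e-05) and Tec 2.21-fold higher (1.15, SE 0.18, adjusted p = 0.00012).

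Txk (72695978 to 72752777) and Tec (72755716 to 72868483) are also neighbours, both on the minus strand of chromosome 5 with 2938 bases and 0 annotated genes between them. Their promoters are shown, in the same format and with the same motifs in capitals, because these adjacent genes had the highest fold changes of the 38. The windows are chr5:72752778-72753027 for Txk and chr5:72868449-72868698 for Tec, both on the minus strand.
Txk: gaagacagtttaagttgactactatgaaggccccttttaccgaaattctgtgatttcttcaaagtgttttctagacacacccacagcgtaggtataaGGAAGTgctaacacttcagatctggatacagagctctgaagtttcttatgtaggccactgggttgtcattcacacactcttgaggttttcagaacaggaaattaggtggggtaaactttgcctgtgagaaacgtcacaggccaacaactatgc
Tec: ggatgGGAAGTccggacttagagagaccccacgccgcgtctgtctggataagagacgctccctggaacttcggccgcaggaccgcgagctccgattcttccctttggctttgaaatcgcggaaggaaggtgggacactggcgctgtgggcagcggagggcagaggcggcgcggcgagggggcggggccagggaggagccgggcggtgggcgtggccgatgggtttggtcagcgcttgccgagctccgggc
Each window held 1 ETS core and neither held an E-box or a Runx core. The Tec window was 68.4% GC with 26 CpG dinucleotides and the Txk window 42.8% GC with 3, where the median window was 52.4% GC.

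**Figure D3:**
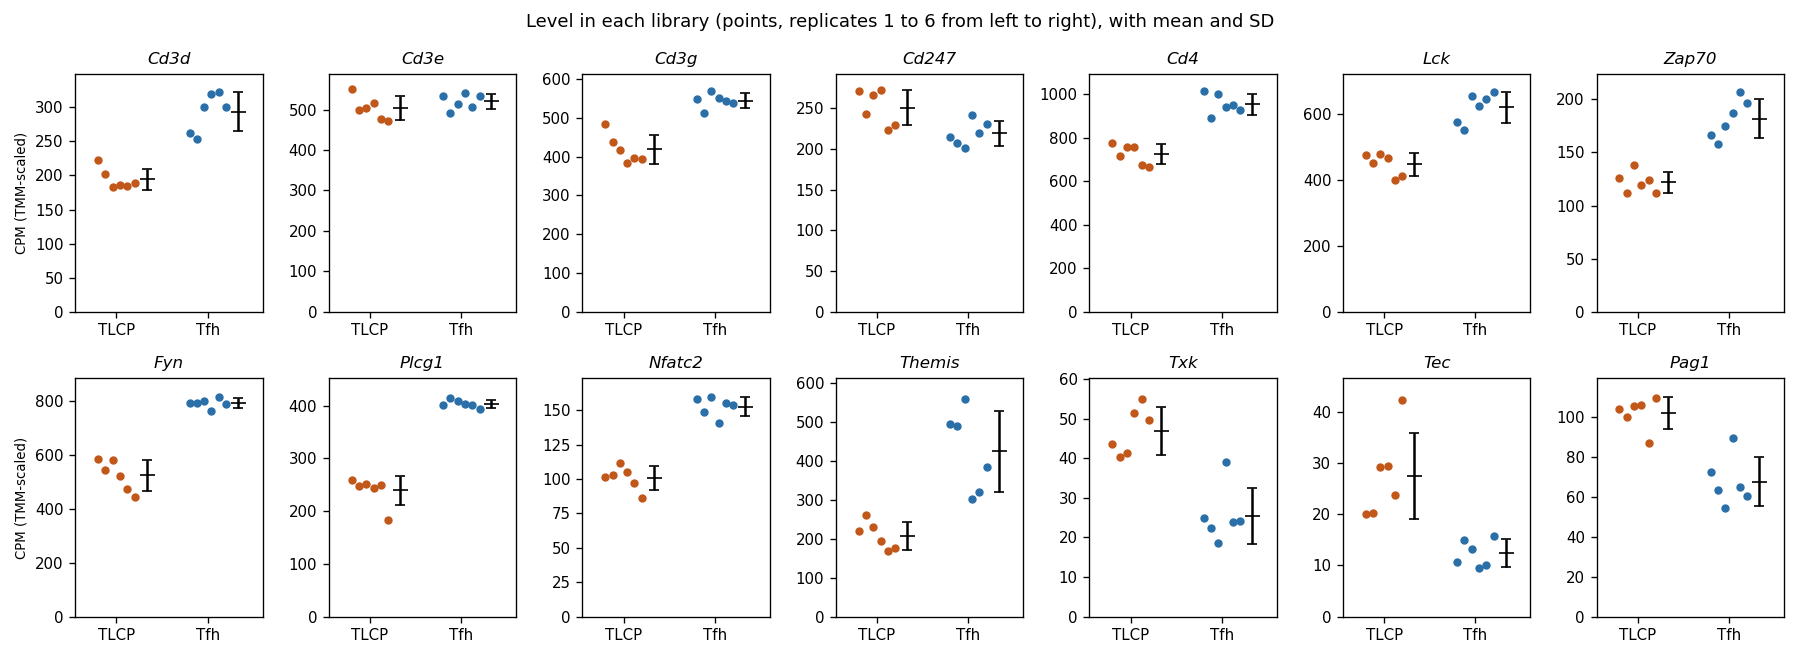
TMM-scaled CPM of 14 genes in each library (points, TLCP in orange and Tfh in blue, replicates 1 to 6 from left to right, bars are mean and SD, axes from 0). The 6 TLCP points lie below all Tfh points for Fyn, Plcg1, Nfatc2 and Themis and above them for Txk and Tec, while those for Cd3e overlap.

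Adaptors of the signaling scaffold also diverged. Themis, an adaptor best known for its role in thymocyte selection, was 167 to 259 CPM (median 206) in TLCP and 301 to 557 CPM (median 436) in Tfh. It was the member with the lowest fold change, 2.05-fold lower without overlap (log2 fold change -1.03, SE 0.17, adjusted p = 0.00073). In Tfh it was 489 to 557 CPM in libraries 1 to 3 and 301 to 383 CPM in libraries 4 to 6, and in TLCP 220 to 259 CPM and 167 to 193 CPM. Within these sets, which no label names as batches, the log2 fold change was -1.12 and -0.92. Lcp2, which encodes SLP-76, averaged 379 ± 20.8 CPM in the 6 libraries of TLCP (mean ± SD, as for the values that follow) and 506 ± 12.9 CPM in those of Tfh. It was lower without overlap (log2 fold change -0.42, SE 0.053, adjusted p = 5.5e-06). Lat, the membrane scaffold, was lower by a log2 fold change of -0.20 (adjusted p = 0.029), a value that was -0.03 with totals alone and 0.09 on the TPM values. It did not pass without TLCP replicate 5 or 6 or Tfh replicate 3 or 6 (adjusted p up to 0.079). Grb2, which recruits Sos1, did not pass (-0.12, adjusted p = 0.16, and 0.05 with totals alone), except without TLCP replicate 6 (-0.18, adjusted p = 0.027). Grap2, which encodes Gads and links Lat to SLP-76, was the adaptor that rose. It was 257 ± 14.4 CPM against 175 ± 7.87 CPM in Tfh, again without overlap (log2 fold change 0.56, SE 0.057, adjusted p = 3.5e-07). The TPM ratio of Grap2 to its relative Grb2 was 0.718 to 0.926 in TLCP and 0.495 to 0.556 in Tfh.

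Among the effectors the calcium and diacylglycerol enzymes separated from the exchange factors. Plcg1, phospholipase C gamma 1, was 183 to 258 CPM (median 249) in TLCP and 393 to 414 CPM (median 402) in Tfh. All TLCP libraries lay far below the narrow Tfh range, at 1.69-fold lower (log2 fold change -0.76, SE 0.071, adjusted p = 1.1e-07). Prkcq, protein kinase C theta, was 271 ± 25.7 CPM against 393 ± 22.5 CPM and also lower (-0.53, SE 0.067, adjusted p = 4.1e-06). Vav1, Rasgrp1 and Sos1, exchange factors for Rac and Ras, did not pass. Their log2 fold changes were -0.05 (95% interval -0.21 to 0.11), -0.03 (-0.19 to 0.12) and -0.01 (-0.18 to 0.17), and 0.13, 0.13 and 0.17 with totals alone, so an increase or decrease of the size seen for Plcg1 lies outside these intervals. Bcl10 and Malt1, partners in a complex that activates NF-kB, were lower by small amounts, Bcl10 at a log2 fold change of -0.31 (adjusted p = 0.0041) and Malt1 at -0.22 (adjusted p = 0.032). Neither passed with totals alone, and Malt1 was 0.06 on the TPM values and lost its call without TLCP replicate 4, 5 or 6 or Tfh replicate 1, 2 or 3 (adjusted p up to 0.072).

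The NFAT factors, which calcineurin sends to the nucleus, split by gene. Nfatc2 was 86.0 to 112 CPM (median 102) in TLCP and 141 to 160 CPM (median 155) in Tfh. Its ranges were well apart and it was 1.52-fold lower (log2 fold change -0.60, SE 0.067, adjusted p = 9.7e-07). Nfatc1 was lower by -0.33 (adjusted p = 0.00036), a call lost with totals alone, and Nfatc3 was higher by 0.19 (adjusted p = 0.0093), both without overlap. Of the TPM summed over the 3 genes, Nfatc3 held 39.6% to 47.2% in TLCP and 32.4% to 34.1% in Tfh, Nfatc1 42.9% to 49.9% and 51.7% to 53.0%, and Nfatc2 9.85% to 11.9% and 13.6% to 15.2%. The balance between the 3 transcripts therefore differed in every library, with Nfatc1 and Nfatc3 closer to parity in TLCP.

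Phosphatases of the proximal kinases moved apart. Ptprc, which encodes CD45 and removes the inhibitory phosphate of Lck, averaged 3098 ± 280 CPM in TLCP against 4260 ± 732 CPM in Tfh, with ranges that overlapped. It was lower, at -0.46 on the log2 scale (SE 0.099, adjusted p = 0.0014), in 6 of 6 pairs, and its isoforms were not separated here. With totals alone Ptprc was -0.30 and did not pass (adjusted p = 0.0504), nor did it pass on the TPM values. The Tfh libraries were 4676 to 5076 CPM in libraries 1 to 3 and 3403 to 3966 CPM in libraries 4 to 6, and the TLCP libraries 3183 to 3434 CPM and 2780 to 2972 CPM. Within each set the populations were separate. Ptpn22, which dephosphorylates Lck and Zap70, was 311 ± 25.1 CPM against 459 ± 59.6 CPM and lower without overlap (-0.56, adjusted p = 1.9e-05). Ptpn6, which encodes SHP-1, was 185 ± 26.2 CPM against 147 ± 17.5 CPM, overlapping, and higher (0.34, adjusted p = 0.0087). The TPM ratio of Ptpn6 to Ptpn22 was 1.09 to 2.01 in TLCP and 0.589 to 1.05 in Tfh. Ptpn2, a further phosphatase of Lck, did not pass (0.07, adjusted p = 0.54).

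Csk, the kinase that adds the inhibitory phosphate to Lck and Fyn, did not pass, with a log2 fold change of 0.02 (95% interval -0.11 to 0.15, adjusted p = 0.86). Pag1, the membrane adaptor that anchors Csk, was 87.0 to 109 CPM (median 104) in TLCP and 54.2 to 89.5 CPM (median 64.2) in Tfh. The lowest TLCP library lay within the Tfh range, so the groups overlapped. Pag1 rose 1.51-fold (log2 fold change 0.60, SE 0.098, adjusted p = 9.6e-05) and was higher in 6 of 6 pairs. It was the only attenuating component among the 12 with a called change of at least 1.5-fold.

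Of 5 adaptors and ligases that limit activated receptors, 1 was higher, 1 lower and 3 did not pass. These shares, 20.0% in each direction, are near the background of 16.8% higher and 16.4% lower. Cblb, a ubiquitin ligase that restrains activation, averaged 141 ± 11.2 CPM in TLCP against 116 ± 8.29 CPM in Tfh, higher without overlap (log2 fold change 0.28, adjusted p = 0.0036). Its relative Cbl (0.12, adjusted p = 0.26) did not pass, nor did the Src-like adaptors Sla (0.14, adjusted p = 0.15) and Sla2 (0.29, adjusted p = 0.085). Sla2 passed when libraries were blocked by number, with totals alone, on the TPM values and without TLCP replicate 2 or Tfh replicate 4. With totals alone Cbl (0.29, adjusted p = 0.017) and Sla (0.32, adjusted p = 0.0080) also passed, where 3207 of all 12015 genes were higher. On log2(TPM + 1) Cbl and Sla passed as well. Ubash3a, which encodes a Cbl-binding suppressor of receptor signaling, was 101 ± 10.1 CPM against 143 ± 3.57 CPM and fell by 0.50 on the log2 scale (adjusted p = 1.3e-05). Dgka and Dgkz, diacylglycerol kinases that end the Ras and protein kinase C signal, moved in opposite directions. Dgka was 443 ± 73.4 CPM against 357 ± 35.8 CPM, overlapping, and higher by 0.31 (adjusted p = 0.024), a call lost without TLCP replicate 1, 3 or 4 or Tfh replicate 4, 5 or 6 (adjusted p up to 0.066). Dgkz was 243 ± 26.3 CPM against 348 ± 32.2 CPM, separate, and lower by a log2 fold change of -0.52 (adjusted p = 2.9e-05). The TPM ratio of Dgka to Dgkz was 2.13 to 2.58 in TLCP and 1.13 to 1.65 in Tfh. Dgkz overlaps a further annotated gene of the same name and strand, which may affect its count.

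Per transcript length, Cd4 was the most abundant of the 38 in both populations, at 470 ± 47.9 TPM in TLCP and 513 ± 96.7 TPM in Tfh. Ptprc (442 ± 45.2 and 509 ± 143 TPM) and Lck (399 ± 39.6 and 455 ± 66.2 TPM) came next, and in Tfh these 3 neighbours in the order did not differ beyond their spread. At the other end Txk was lowest, at 11.3 ± 2.16 TPM in TLCP and 4.97 ± 1.27 TPM in Tfh. Above it came Sos1 (16.7 ± 2.87 TPM) and Tec (19.5 ± 7.28 TPM) in TLCP, within each other's spread, and Tec (7.19 ± 2.01 TPM) and Sos1 (13.8 ± 2.91 TPM) in Tfh. The Tec family transcripts that rose were thus among the least abundant of the set.

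How libraries are scaled sets how many genes count as lower. A ribosomal RNA-like gene, CT010467.1, held 12.9% to 24.1% of the reads assigned to genes in TLCP libraries and 16.6% to 30.9% of those in Tfh libraries. Values expressed per total include it. With totals alone 12 members were higher and 13 lower, beside 3207 and 893 of all 12015 genes. With limma on log2(TPM + 1), where the median of all genes was 0.25, 12 were higher and 2 lower. The lower ones were Themis and Plcg1, so every other lower call of the main fit was lost there. All 12753 genes of that fit had 3116 higher and 473 lower, so the share of members lower was near that of all genes. When ribosomal RNA genes were left out and TPM rescaled, an alternative added after seeing the data, 5 were higher and 12 lower. All 13852 genes of that fit had 1611 higher and 923 lower. Txk, Tec, Grap2 and Pag1 as higher, and Themis and Plcg1 as lower, kept their call in all 30 alternative fits.

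**Figure D4:**
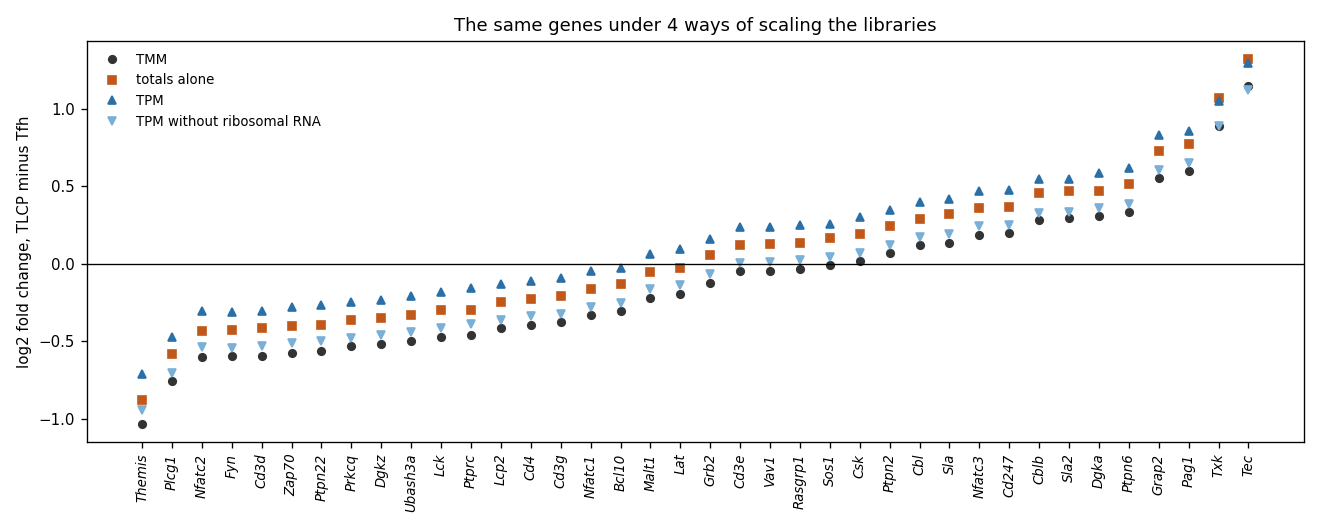
Log2 fold change (TLCP minus Tfh) of each of the 38 genes under TMM, library totals alone, log2(TPM + 1) and log2(TPM + 1) without ribosomal RNA genes, ordered by the TMM value. The order of the genes is much the same, while totals and TPM lift all of them, by 0.17 and 0.25 at the median of all genes tested.

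B cell transcripts were higher in TLCP, and Tec and Ptpn6 are also expressed in B cells. Of the 16 B cell markers, the 14 other than Ighm and Ighd summed to 625 CPM in TLCP replicate 1, 1225 to 1390 CPM in replicates 2 to 5 and 2575 CPM in replicate 6, and to 297 to 816 CPM in Tfh. TLCP replicate 6 also had the highest level of Tec (42.4 CPM) and of Ptpn6 (227 CPM), and replicate 1 the lowest of both (20.0 and 159 CPM). Among TLCP libraries Txk was highest in replicate 5 (55.0 CPM), Grap2 in replicate 1 (272 CPM) and Pag1 in replicate 6 (109 CPM). No association with the B cell markers was tested. Without replicate 6 the log2 fold changes were 0.97 for Tec, 0.87 for Txk, 0.55 for Grap2, 0.57 for Pag1, 0.26 for Ptpn6, -0.70 for Plcg1 and -0.99 for Themis, all still called. The libraries that remained still differed in these markers. TLCP replicate 1, with less of them than Tfh replicate 6 (816 CPM), had 20.0 CPM of Tec against 15.9 CPM there and 43.6 CPM of Txk against 24.1 CPM. Grap2 was 272 CPM against 172 CPM and Pag1 104 CPM against 60.1 CPM in that pair of libraries, while Ptpn6 was 159 CPM against 158 CPM. These are single libraries, set side by side after their values were seen, so no test was made. When the 2 TLCP libraries richest in immunoglobulin reads (replicates 4 and 5) were left out, Cd247, Lat and Malt1 no longer passed. The part of other cells in these differences was not tested.

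A further 70 genes of the pathway, taken from a list made with earlier results of these data known, had 39 genes called (55.7%, background 33.2%). Of these 14 were higher (background 16.8%) and 25 lower (background 16.4%), and the median log2 fold change was -0.07. With totals alone 24 were higher and 18 lower, with a median of 0.10, beside 3207 higher and 893 lower of all 12015 genes. Of 15 further proximal kinases and adaptors 3 were higher and 7 lower, of 13 calcium genes 3 and 4, of 9 Ras and MAPK genes 0 and 4, of 11 exchange factors and lipid enzymes 3 and 1, of 3 genes of the NF-kB arm 1 and 0, and of 16 attenuators 4 and 6. Several of these shares are near the background, such as 3 of 13 calcium genes higher. The highest change was that of Ppp3ca, a catalytic subunit of calcineurin, at 64.4 to 132 CPM (median 85.0) in TLCP and 21.0 to 41.3 CPM (median 25.3) in Tfh. The groups were separate, and the log2 fold change was 1.73 (SE 0.19, adjusted p = 2.3e-05). Sh3bp2, an adaptor (1.41), Nedd4l, a ubiquitin ligase (1.08), and Vav2, an exchange factor (0.96), followed. Rnf128, which encodes the ubiquitin ligase GRAIL, had the lowest change, at 1.99 to 5.80 CPM (median 4.10) in TLCP and 20.5 to 27.8 CPM (median 22.5) in Tfh. It fell without overlap, by 2.54 on the log2 scale (SE 0.19, adjusted p = 5.8e-09). Ptpn11, which encodes the phosphatase SHP-2, was 177 to 276 CPM (median 231) against 683 to 832 CPM (median 766), which is -1.72 on the log2 scale (SE 0.095, adjusted p = 3.5e-10). Rcan1, a calcineurin regulator, was also lower (-0.99, adjusted p = 0.00031).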

How the data were processed

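Per the labels' protocols, CD4 T cells enriched with magnetic beads were sorted, and libraries were made from poly(A) RNA. The submitters' processing notes name GRCm38, STAR 2.7.1a, bcl2fastq 2.20 and DESeq2 1.30.1, with no annotation release given. The authors deposited raw read counts per gene, of which the column for the strand of the gene was used. Between 44.9% and 56.4% of reads fell in 4 classes that name no gene and were left out. The authors' deposited table holds log2 fold changes with a standard error, p-values, a test score and a normalized signal per library (counts divided by a size factor). Whole reads were recovered for 100% of those signal values (tolerance 0.01 reads) and equalled the counts, and the count test on them called 3983 genes. The authors also deposited TPM.

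The main test was that of edgeR 4.0.16 in R 4.3.3 (filterByExpr, TMM, robust 2-sided quasi-likelihood test without a block, Benjamini-Hochberg adjustment over 12015 genes, threshold 0.05). Fold changes are TLCP minus Tfh, SE is their size over the root of the F statistic, and levels are given over 6 libraries. Alternatives used limma 3.58.1 (genes of at least 1 TPM in 6 libraries, pseudocount 1 or 0.1) and DESeq2 1.42.0 among others. On simulated data of this comparison (3 simulations, 11804 to 11879 genes) 46.7% of genes changed 1.5-fold and 74.3% of those changed 2-fold were recovered, with 3.21% false calls.

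The members and lists were chosen with earlier results of these data known. All members are named. Ranges per library are given for called members changed at least 1.5-fold and for Cd3d, Cd3e, Cd3g, Cd247, Cd4, Lck and Zap70, and of the other pathway genes the 4 highest and 4 lowest called are named, except 1 that is not reported here, beside Trac, Trbc1 and Trbc2, which were added. Libraries with the same number deviated together from their group means (correlations 0.127 to 0.318), so the numbers were taken to pair them, which no label states. Correlations between different numbers reached 0.209, above the lowest same-number value, and only 9 libraries correlated best with their own number. Different numbers had a median of 0.095 within the sets described for Themis and Ptprc and -0.130 across them. Counts of pairs therefore rest on an inferred pairing. Multimapping reads were 16.1% to 24.3% and opposite-strand reads 2.83% to 4.19%. All libraries of a group differed beyond sampling noise (chi-square over its degrees of freedom at least 6.60). Positions are from GENCODE M21 on GRCm38, and 32 of 38 members had a RefSeq promoter entry.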

Additional observations from a re-analysis of the deposited data

Results flagged for a closer look

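Of 76 groups of 6 libraries (38 genes in each population), 6 held a library whose gap to the nearest of the others was beyond Dixon's 95% critical share of the group's range, and chance gives about 1 in 20. Txk was 39.0 CPM in Tfh replicate 4, where the other 5 were 18.5 to 25.0 CPM, and its log2 fold change without that library was 1.04. Plcg1 was 183 CPM in TLCP replicate 6, where the others were 244 to 258 CPM, and its log2 fold change without it was -0.70. Vav1 was 151 CPM in Tfh replicate 4 and 120 to 123 CPM in the others. Grb2 was 167 CPM in TLCP replicate 6 (others 131 to 142 CPM), and without that library it passed as lower (log2 fold change -0.18, adjusted p = 0.027). In Tfh replicate 2 Grb2 was 140 CPM (others 154 to 162 CPM) and Csk 226 CPM (others 244 to 254 CPM).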

How the results depend on the processing

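Members higher and lower numbered 9 and 19, the other pathway genes 14 and 25, and all genes called 3983. Libraries 4 to 6 alone gave 5 members and 9 other genes higher. Totals alone gave 24 other genes higher. Limma on log2(TPM + 1) and log2(TPM + 0.1) each gave 2 members lower and 24 other genes higher and 7 lower. Of all 12753 genes these fits called 3116 and 2992 higher and 473 and 456 lower. TPM rescaled without ribosomal RNA genes gave 5 members higher, 12 lower and 2534 genes in all. On log2(TPM + 1) and log2(TPM + 0.1) the sign turned for Lat (0.0928 and 0.0933), Malt1 (0.0645 and 0.0657), Nck1 (0.0195 and 0.0206), Map4k1 (0.0816 and 0.0825) and Ndfip1 (0.0646 and 0.0652), where the median of all genes was 0.25 and 0.28. With the replicate block, which pairs libraries by number, 10 members were higher and 19 lower, 18 and 25 other genes, and 4453 genes in all. The block changed no other member's call than that of Sla2. Libraries 1 to 3 alone lost the calls of Lat and Nfatc3, and libraries 4 to 6 alone those of Cd247, Bcl10, Malt1, Ptpn6, Cblb and Dgka. Leaving out each library gave 7 to 10 members higher, 17 to 19 lower, 13 to 15 and 24 to 26 other genes, and 3489 to 4008 in all, and 4 members (Cd247, Dgka, Lat and Malt1) lost their call without some library. The cause of these shifts was not tested beyond the scalings named.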
